A study of Oncorhynchus mykiss with 2 samples.

Results

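A set of 350 array probes gave a bright signal of similar size in type A spermatogonia and in testicular somatic cells of male rainbow trout. They were chosen by their measured values, out of 55916 probes. The level of a probe is the log2 of its signal minus the log2 of the 75th percentile of all non-control spots on the same array, averaged over the spots of the probe. A member had a level of at least 5 on both arrays, which is 32 times the 75th percentile, and its levels were less than 1 apart, which is less than 2-fold. Both thresholds used the levels, so the brightness and the likeness of the members are given as descriptions. Members made up 0.626% of the probes measured. The signal of a probe also depends on its sequence, so a bright probe need not stand for an abundant transcript, and "bright" here means signal alone.

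Type A spermatogonia came from the immature testis of fish that carry the transgene pvasa-GFP, where green fluorescent protein in spermatogonia is driven by the vasa promoter. Vasa encodes an RNA helicase known from germ cells. Testicular somatic cells came from the testis of fish with the same transgene. Both populations were isolated by fluorescence-activated cell sorting, so both groups share the transgene and the sort, and the labels do not give the gate of the somatic cells, the age of the fish or how many fish were pooled. For each population, 1 array was hybridised with 25 ng of RNA carrying the Cy3 dye. There were thus 2 arrays and 1 sample per group, no difference between the groups has a replicate check, and no test was run. In such sorted populations, fewer cells of a type and less RNA per cell cannot be told apart.

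Type A spermatogonia are undifferentiated germ cells from which sperm production starts, and testicular somatic cells include the Sertoli cells that nurse them and the Leydig cells that make androgens. In most animal cells a small number of genes, such as those for ribosomal proteins, translation factors, cytoskeletal proteins and mitochondrial enzymes, supplies a large share of the messenger RNA. Such genes are commonly expressed in germ cells and somatic cells alike. Salmonid fish also carry many near-identical gene copies from a whole-genome duplication, which hybridisation probes can fail to separate. The array names its probes by custom numbers and by the contigs or single sequencing reads they were made from. None of these names (0 matches) occurred in the gene table used here, so no member is given a gene name or a role, and the 2 populations could not be checked against germ cell or somatic cell markers.

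The members were a small part of the array and carried a large part of its signal, which follows from a rule that took only bright probes. Summed over probes, they held 37.0% of the processed signal on the spermatogonia array and 33.8% on the somatic cell array. With probes ranked by signal alone, the 287 brightest held at least as much in spermatogonia, and the 175 brightest did in somatic cells. Among the 50 brightest probes of each array, 48 were members in spermatogonia and 30 were members in somatic cells. Among the 100 brightest, the counts were 92 and 54. The bright end of the somatic cell array thus held many probes outside the shared set. In spermatogonia 492 probes reached a level of 5, and in somatic cells 765 did. The members were 71.1% of the first group and 45.8% of the second. A level of 5 is a lower signal on the somatic cell array, whose 75th percentile was 497 against 769 for spermatogonia. These counts and shares rest on that scaling.

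At a level of at least 5 on both arrays there were 396 probes, of which 350 (88.4%) were less than 2-fold apart and so were members. A floor on both levels limits how far apart they can be, so nothing is read from this share beside the 46.8% of all 37959 probes detected on both arrays that were less than 2-fold apart. Of the 861 probes that reached a level of 5 on either array, 436 (50.6%) were less than 2-fold apart. A high level on 1 array was enough for this group, which lets in probes far apart. Nothing is read from this share either. Detection required the scanner software's flag for signal well above background on over 50% of the spots of a probe. The 46 bright probes outside the set were all higher in somatic cells, with differences of -4.50 to -1.04 in log2, spermatogonia minus somatic cells. In 12 of them the levels were at least 4-fold apart. Over all probes detected on both arrays, 23.6% were at least 4-fold apart in either direction. The 46 were already selected as bright and at least 2-fold apart, so the 12 are not compared with that share. Which of the 396 probes lay 2-fold or more apart depended on the scaling. With the 75th percentile, 0 were that much higher in spermatogonia and 46 in somatic cells. Before scaling these counts were 23 and 19, with spike-ins 28 and 15, and with quantile normalization 31 and 14. Taking out the scaling adds 0.63 to each difference, so the same 46 probes, at -1.04 or lower, stayed higher in somatic cells by construction. Their signal differences before scaling were -3.87 to -0.41. With quantile normalization, 45 of them were higher in somatic cells.

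The share of probes less than 2-fold apart differed with brightness, on the 75th-percentile scaling. Among 222 probes detected on both arrays with a mean level of 5 to 6, 68.9% were less than 2-fold apart (95% Wilson interval 62.6% to 74.6%). The share was 76.0% of 150 probes at a mean level of 6 to 7, and 85.0% of 113 probes at 7 to 8. At 8 or more it was 91.2% of 34 probes (77.0% to 97.0%). Between mean levels of -3 and 2, where most probes lie, each bin had between 42.8% and 45.2%. The dimmest bin, below -4, was also high at 86.8%. A probe enters that bin only with a dim level on both arrays, which bounds its difference. Just below the members' range, the share was 52.2% of 772 probes at 3 to 4 and 55.4% of 350 probes at 4 to 5. A 4-fold or larger excess in spermatogonia was found for 13 probes at 5 to 6 and for 0 probes at 6 or more. A 4-fold or larger excess in somatic cells was found for 28 probes at 5 to 6, 22 at 6 to 7, 6 at 7 to 8 and 0 at 8 or more. At mean levels of 6 or more, all probes less than 2-fold apart were members, and at 5 to 6 members were 109 of the 153. The highest levels were 9.67 in spermatogonia and 10.23 in somatic cells, which bounds the difference only for mean levels near them. What produces the rise over these bins was not tested. From 6 upwards the share is that of the members themselves, so nothing about the members is read from the rise. The intervals cover counting error only, and probes are not independent.

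Over the members, the median level was 6.40 in spermatogonia, with a range of 5.01 to 9.67. In somatic cells the median level was 6.81, with a range of 5.03 to 10.23. In signal units the members spanned 24805 to 628067 in spermatogonia and 16310 to 595111 in somatic cells, against medians of 5.05 and 3.83 for 300 negative control spots. All 350 members were detected on both arrays. No spot was saturated. The brightest member spot reached 80.7% of the saturation value in spermatogonia and 76.4% in somatic cells.

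Level differences, spermatogonia minus somatic cells, had a median of -0.54 over the members and ran from -0.99 to 0.88. Of the 350 members, 308 (88.0%) were higher in somatic cells and 42 were higher in spermatogonia. Of all probes detected on both arrays, 49.2% were higher in somatic cells, with a median difference of 0.03. This direction rests on the scaling to the 75th percentile and turned with other scalings. The 75th percentile of the signal was 769 for the spermatogonia array and 497 for the somatic cell array, which are 0.63 apart in log2. Before any scaling, the same members had a median signal difference of 0.09, and 231 of them were higher in spermatogonia and 119 in somatic cells. With scaling to 5 spike-in control transcripts, 316 were higher in spermatogonia and 34 in somatic cells. Under these settings the median over all probes detected on both arrays shifted by 0.63 without scaling and by 0.78 with spike-ins. It shifted by 0.12 with quantile normalization and by -0.14 after normexp background correction. Quantile normalization turned the members too, with 334 higher in spermatogonia and 12 in somatic cells, and the authors' deposited value table had 320 higher in spermatogonia and 30 in somatic cells after each column's 75th percentile was subtracted. The data therefore give no settled direction for the members as a group.

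Many members had almost the same signal on both arrays before scaling. The signals of 126 members (36.0%) were within 0.1 of each other in log2, and those of 186 members (53.1%) were within 0.2. Over all probes detected on both arrays, these shares were 4.88% and 9.43%. The rule confines the members' differences, so nothing is read from the contrast. Some members come from contigs whose names share a number and are not separate measurements. Among them, the 17 members named YGL02.2, described below, were all within 0.1. The 0.1-wide bin of level differences with the most members ran from -0.7 to -0.6 and held 77 of them, and equal signals lie in it. A smaller peak of 44 members lay between -0.4 and -0.3. Such closeness was counted by brightness. Of 127 members with a mean level of at least 7, 80 (63.0%) had signals within 0.2 of each other, against 39 of 109 (35.8%) with a mean level under 6. Because of the scaling, near-equal signals require levels that are apart. The floor on both levels bounds how far apart the levels of the dimmest members can be. The rule thus partly sets the lower share, and nothing is read from these 2 shares. The level of the brightest spike-in control transcript was 1.57 for spermatogonia and 2.31 for somatic cells, so no spike-in lay in the range of the members.

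The 2 brightest members were the 2 brightest probes of both arrays, in the same order. Probe CUST_13021_PI425928001, made from a single read, was the brightest probe of each array, with a level of 9.67 in spermatogonia and 10.23 in somatic cells. Its signals were 628067 and 595111, a ratio of 1.06 before scaling. Probe CUST_580_PI425928020, also from a single read, ranked 2 on each array, with levels of 9.45 in spermatogonia and 10.01 in somatic cells. Each of these probes has 1 spot, so neither has a measure of its spot error.

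The next 3 members in brightness came from contigs, and for these the repeat spots give an error within the array. Probe CUST_5970_PI425928308 (contig YGL02.3548.C2) had levels of 9.16 in spermatogonia and 9.77 in somatic cells. Its difference was -0.62 with an SD of 0.024 over 2 spots. Probe CUST_7634_PI425928308 (contig YGL02.4754.C1) had levels of 9.18 in spermatogonia and 9.73 in somatic cells, with a difference of -0.55 and an SD of 0.082 over 3 spots. These probes ranked 4 and 3 in spermatogonia and 3 and 5 in somatic cells, and their differences lay within the spot error of each other. Probe CUST_2045_PI425928308 (contig YGL02.1055.C15) had levels of 8.83 in spermatogonia and 9.41 in somatic cells, and its difference of -0.58 had an SD of 0.080 over 3 spots. The sixth, single-read probe CUST_23689_PI425928001, had levels of 8.46 in spermatogonia and 9.35 in somatic cells. Its difference of -0.88 was the largest of the 6 brightest members, and its signal before scaling was the only one of these 6 that was lower in spermatogonia. The 6 together held 3.38% of the spermatogonia signal and 3.36% of the somatic cell signal.

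Repeat spots of the members were tighter than the differences between members. The 163 members from contigs have at least 2 usable spots, and the median SD of their level difference over repeat spots was 0.048. Across these members the SD of the difference was 0.35. For 20803 other probes with repeat spots detected on both arrays, the median SD over spots was 0.068. Most of these were dimmer than the members, and for the 72 with a mean level of at least 5 it was 0.060. Repeat spots share an array and a labelling reaction, so this error leaves out any difference between fish, sorts or reactions. Of the 163 members, 161 met the rule at each of their spots and 2 did not. Over all 350 members the extremes were 1.87 apart in log2, a 3.65-fold change in the ratio of spermatogonia to somatic cells. A constant scaling of the arrays moves all members equally and leaves this spread as it is. Under quantile normalization, loess and normexp correction and in the authors' deposited value table, the SD over the members stayed between 0.37 and 0.39.

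Members at the edges of the rule show how far it reaches. The largest differences towards spermatogonia were those of probes CUST_3500_PI425928308 and CUST_3501_PI425928308. They had levels of 6.31 and 6.04 in spermatogonia, against 5.43 and 5.19 in somatic cells. Their differences were 0.88 with an SD of 0.041 over 3 spots and 0.85 with an SD of 0.11 over 2 spots. These probes come from contigs YGL02.1936.C2 and YGL02.1936.C3, which share a name. The remaining contig of that name, C1, had levels of 5.45 in spermatogonia and 4.60 in somatic cells, so it missed the level threshold with almost the same difference of 0.85. Before scaling, the signals of the 2 member contigs were 2.85 and 2.79 times as high in spermatogonia as in somatic cells.

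Towards somatic cells, single-read probes CUST_2519_PI425928001 and CUST_5747_PI425928001 were the outermost members. The first had levels of just over 7 in spermatogonia and 7.99 in somatic cells, a difference of -0.99. The second had levels of 6.99 in spermatogonia and 7.97 in somatic cells, a difference of -0.98. Just outside the difference threshold, probe CUST_662_PI425928308 had levels of 5.91 in spermatogonia and 6.95 in somatic cells. Its difference of -1.04 had an SD of 0.040 over 3 spots, about as large as its distance from the threshold. Probe CUST_20652_PI425928001 followed at -1.04, from levels of 6.97 in spermatogonia and 8.01 in somatic cells.

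The level threshold also passed through a continuous range. The members with the lowest level on either array were CUST_1322_PI425928001, with levels of 5.01 in spermatogonia and 5.76 in somatic cells, and CUST_1287_PI425928020, with 5.02 in spermatogonia and 5.18 in somatic cells. Just below the threshold, CUST_10204_PI425928308 had levels of 5.24 in spermatogonia and just under 5 in somatic cells. CUST_4941_PI425928308 had 5.19 in spermatogonia and 4.99 in somatic cells. The members with repeat spots closest to equal levels were CUST_17484_PI425928308, at 7.73 in spermatogonia and 7.72 in somatic cells, and CUST_6534_PI425928308, at 5.13 in spermatogonia and 5.14 in somatic cells. Their differences were 0.01 and -0.01, with spot SDs of 0.024 and 0.065.

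The members' differences were more spread at lower levels. With the 75th percentile, 22 of 109 members with a mean level under 6 and 5 of 127 with a mean level of at least 7 were higher in spermatogonia. Before scaling these counts were 83 and 81, and with spike-ins they were 102 and 111. The SD of the difference was 0.44 among the 109 and 0.24 among the 127, which a constant scaling does not change. The Spearman rho between the mean level and the difference was -0.25 across the 350 members, which share the 2 arrays and are not independent. The rule limits both the levels and the differences, so the spreads and the rho only describe the members it took. In all, 18 members had a difference above 0.5 and 186 had one below -0.5, and these counts move with the scaling.

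The source of a probe was not part of the rule. Name suffixes differed in share between the members and the array, more than contigs and single reads did. Contig probes made up 163 of the 350 members (46.6%, 95% Wilson interval 41.4% to 51.8%), against 51.1% of all probes and 55.3% of those detected on both arrays. The intervals in this paragraph cover counting error only. Members share the 2 arrays and some share a contig name, so they are not independent, and no share is judged by its interval. Single-read probes carry 1 of 2 name suffixes, which the sources used here do not explain. Of 3264 probes with the suffix PI425928020, 103 were members (3.16%, interval 2.61% to 3.81%). Of 24074 probes with the suffix PI425928001, 84 were members (0.349%, interval 0.282% to 0.432%). Of 28578 contig probes, 163 were members (0.570%, interval 0.489% to 0.665%). The first suffix thus supplied 29.4% of the members from 5.84% of the probes.

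Probes with that suffix were also brighter as a group, and brightness is part of the rule. Whether brightness accounts for their share of the members was not tested. In spermatogonia the median level was -1.27 for this suffix, -3.19 for the other single-read suffix and -1.77 for contigs. In somatic cells the medians for these 3 kinds were -1.39, -2.99 and -1.77. Within the probes detected on both arrays, the share less than 2-fold apart was 47.9% for suffix PI425928020, 50.2% for PI425928001 and 44.3% for contigs. Of probes at a level of at least 5 on either array, members were 57.2% for PI425928020, 32.3% for PI425928001 and 38.7% for contigs. At that level on both arrays, members were 94.5%, 83.2% and 87.6% in this order. Among the members the median differences were -0.57 for PI425928020, -0.48 for PI425928001 and -0.49 for contigs. The rule confines these differences, so their closeness is partly preset. The SDs of the difference were 0.31, 0.49 and 0.35 in this order. With the 75th percentile, members higher in spermatogonia were 6 of 103, 18 of 84 and 18 of 163 in this order. Before scaling they were 65, 54 and 112, and with quantile normalization 100, 75 and 159.

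Contig members often shared a name with other contigs. Contigs named alike up to their last part, such as YGL02.97.C1 and YGL02.97.C2, are taken here as 1 name. The sources used here do not explain the shared number. Such contigs may share sequence, so they are not separate measurements of a condition. Of the 163 contig members, 143 (87.7%, interval 81.8% to 91.9%) belonged to a name with at least 2 contigs. This held for 29.0% of all contig probes and for 32.8% of those detected on both arrays. Among 624 contigs detected on both arrays with a mean level of 3 to 5, just below the members, it held for 64.7%. The share with a common name thus went up with brightness outside the set as well. The interval above covers counting error only, and contigs of 1 name are not independent.

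The contig members came from 95 names, and 37 of these names held 2 or more members, 105 members in all. Within these names the pooled SD of the level difference was 0.13, against 0.29 for the same 105 members without regard to name. Leaving out the largest name, the pooled SD was 0.14, and the SD without regard to name is not given for those members. The SD within a name ran from 0.015 to 0.51, the highest being that of YGL02.3, whose 2 members had differences of -0.70 and 0.01. Among the members, those that share a name lay closer together on the whole, with exceptions. The rule confined these differences and left out other contigs of the same names, so the SDs only describe the members it took. Besides YGL02.3, the names YGL02.1536 (SD 0.24), YGL02.1446 (0.23) and YGL02.2435 (0.22) were among the widest.

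Within the 37 names, YGL02.2 aside, 4 names held 4 members each. The 4 members named YGL02.1055 had differences from -0.77 to -0.32, with an SD of 0.20. The 4 named YGL02.1260 ran from -0.39 to -0.18, with an SD of 0.087. The 4 members named YGL02.4308 had levels of 6.47 to 6.98 in spermatogonia and 7.10 to 7.63 in somatic cells, and their differences ran from -0.69 to -0.63. The 4 members named YGL02.97 had levels of 8.09 to 8.22 in spermatogonia and 8.46 to 8.61 in somatic cells, with differences from -0.39 to -0.28. Another 2 names are given because their differences were the narrowest and the highest, so they were chosen after their values were seen. The 3 members named YGL02.1404 had levels of 6.92 to 8.05 in spermatogonia and 6.98 to 8.11 in somatic cells, with differences from -0.06 to -0.03. The 2 members named YGL02.1936 were at 0.85 and 0.88, as given above. The median SD over repeat spots in these 6 names was between 0.022 and 0.084.

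The name with the most members was YGL02.2, with 17 members among 49 contigs. Their levels ran from 5.61 to 7.25 in spermatogonia, with a median of 6.79, and from 6.27 to 7.85 in somatic cells, with a median of 7.40. Their differences lay between -0.67 and -0.55, with an SD of 0.033. That SD is over probe means of 2 or 3 spots, and the median SD over the single spots of such a probe was 0.052. Before scaling, their signals in spermatogonia were between 0.971 and 1.06 times those in somatic cells. The brightest, CUST_48_PI425928308 (contig YGL02.2.C45), had signals of 117468 in spermatogonia and 114940 in somatic cells. The 17 members held 1.79% of the spermatogonia signal and 1.80% of the somatic cell signal.

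The other 32 contigs of this name missed the rule, so their lower levels and wider differences are partly set by it. Of these, 27 were detected on both arrays, with levels from -4.28 to 3.99 in spermatogonia and from -4.59 to 4.60 in somatic cells. Their differences had a median of -0.61 and ran from -3.15 to 2.86, with an SD of 1.28. Of the 27, 19 were less than 2-fold apart. An excess of 4-fold or more was towards spermatogonia in 1 of them and towards somatic cells in 4. No contig of this name had a level between 4.60 and 5.61 on either array.

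The 95 names with a member held 378 contigs detected on both arrays, of which 256 (67.7%) were less than 2-fold apart, the 163 members among them. Without the members, 93 of 215 (43.3%) were, and without YGL02.2 also 74 of 188 (39.4%). These shares rest on which contigs the rule took out, and nothing is read from them. The 215 contigs had a median level of 0.48 in spermatogonia and 1.52 in somatic cells. An excess of 4-fold or more was towards spermatogonia in 10 of them and towards somatic cells in 41. YGL02.97 holds both members and contigs with such an excess towards somatic cells. Its contigs C5 and C6 had levels of 2.81 and 1.56 in spermatogonia, against 5.97 and 4.76 in somatic cells. Their differences were -3.17 and -3.21, whereas those of C1 to C4 were between -0.39 and -0.28.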

How the data were processed

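RNA of 2 sorted cell populations was measured on 1 Agilent custom array each (design 034067). Both arrays lay on 1 slide in 1 scan per the file headers, so array position and population cannot be told apart. The deposited scanner output gives a linear intensity per spot, per the file headers after background subtraction and detrending within each array, with no step between arrays. They name Agilent's Feature Extraction in version 10.7.3.1, and the submitters' processing notes name 10.7. The authors also deposited a value table without a stated scale, read here as log2 because each column followed the log2 levels of its own array (r of 0.9997 each). Both its columns have a median of 6.97, and the sources used here do not say how the authors normalized these log2 values.

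Of 105072 spots per array, 1325 controls were left out. Outlier marks, 1104 in spermatogonia and 1198 in somatic cells, took a spot out on both arrays. Levels and membership were computed as the report states, in Python 3.11.15 with numpy 2.4.6 and pandas 2.3.3. Names were compared with 72772 genes of the gene table. With 1 array per group no p-value was computed, and precision is limited by having so few arrays. On simulated arrays of 55916 probes, the 50 probes set well inside the rule were called members. Of 150 set well outside it, 0 were called. These probes lay clear of the thresholds, so the outcome checks the computation and not how reliable membership is. With spot noise added, 348 of the 350 members were called, as were 4 of 55366 other probes. That noise was drawn around the measured levels at the size of the spot error alone. It leaves out error of the array, labelling and scaling, so this count does not show how reliable membership is either. The members, lists and named probes were chosen with earlier results of these data known. Named probes were the 6 brightest, the 2 closest to equal, those nearest each threshold on both sides, and 6 of the largest name, of which 1 is printed. Gene lists and cell type markers could not be applied without gene names. Alternatives changed the scaling (none, median of detected probes, spike-ins, quantile, loess with a span of 0.7), the values (the authors' table, or limma 3.58.1 normexp with an offset of 50 in R 4.3.3), the handling of spots and the thresholds. Mean spot signals were not used here, so normexp ran on median spot signals.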

Additional observations from a re-analysis of the deposited data

Results flagged for a closer look

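Signal also appeared in spots that the levels do not use. The scanner software marked 1 repeat spot as an outlier in each of 18 members, 14 of them in spermatogonia and 4 in somatic cells. These 18 spots had signals from 22399 to 407792 in spermatogonia and from 16077 to 422540 in somatic cells, far above the negative control spots. Compared with the kept spots of the same probes, the median log2 departure was -0.024 on the spermatogonia array and -0.0099 on the somatic cell array.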

How the results depend on the processing

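The 350 members gave way to 339 to 373 members under the other scalings, values and spot rules, with 308 to 350 of the original members among them. Thresholds moved the number by construction: 545 at a level of 4, 210 at a level of 6, 146 at a difference of 0.5 and 384 at a difference of 2. For the original 350 members, the median difference was 0.09 without scaling, 0.24 with spike-ins and 0.38 with quantile normalization. It was 0.28 in the authors' deposited value table, -0.08 with loess and -0.46 with normexp. The medians, shares and names that follow are over the members found anew under each setting. Their median difference, -0.54 as reported, turned to 0.026 without scaling, 0.17 with spike-ins, 0.30 with quantile normalization and 0.21 in the authors' deposited value table. It kept its direction at -0.13 with loess, -0.48 with normexp, -0.46 at a level of 4 and -0.30 at a difference of 0.5. Scaling constants shift all differences by construction; for quantile normalization, loess and normexp the cause was not tested. The members' share of the array signal, 37.0% in spermatogonia and 33.8% in somatic cells, was 41.3% in spermatogonia with quantile normalization and 41.2% in the authors' deposited value table. In somatic cells it was 37.0% without scaling and 37.6% with spike-ins. It was 38.1% in spermatogonia and 37.0% in somatic cells with loess, and 35.5% and 32.8% with normexp. At a level of 4 it was 41.8% in spermatogonia and 37.4% in somatic cells, and at 6 it was 30.5% and 28.2%. At a difference of 0.5 it was 13.4% and 10.4%, and at 2 it was 40.0% and 38.7%. Contigs were 52.7% of the members at a difference of 0.5, against 46.6%. Names with at least 2 members, 37 as reported, were 21 at a level of 6 and 19 at a difference of 0.5. Recomputing these names and the spot error under each alternative was chosen after seeing the data. So was giving the direction of the bright probes and of parts of the members under other scalings. Of the 24 named probes, 17 changed the sign of their difference under at least 1 setting. No paired analysis was possible because each group has 1 sample. Signal over background limited no member, since all were detected on both arrays.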

Other observations

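Another 86 probes reached a level of 5 on 1 array and were less than 2-fold apart, but fell below 5 on the other. Of these, 59 were below 5 in spermatogonia and 27 were below 5 in somatic cells. Probes that reached a level of 5 on 1 array and not on the other, at any difference, numbered 96 in spermatogonia and 369 in somatic cells. A level of 5 is a lower signal on the somatic cell array, so these counts rest on the scaling. The brightest probe outside the set ranked 14 in spermatogonia and 4 in somatic cells. Member spots lay in rows 1 to 528 and columns 2 to 199 of an array with 528 rows and 199 columns.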
